A study of Trichoderma reesei RUT C-30 with 16 samples.

Results

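The 201 genes described here are genes of the filamentous fungus Trichoderma reesei whose transcripts were already detected without DTT and were more abundant with DTT both in glucose and in lactose. They were chosen by their measured levels, out of 10008 genes counted in 16 libraries. Counts were expressed as CPM (the count of a gene divided by the library sum and multiplied by 1000000) and averaged over the 4 libraries of a condition, both strains together. A gene was kept when the mean CPM plus 1 was higher by at least 2 on the log2 scale with DTT than without it in lactose and also in glucose. The lactose and glucose cultures without DTT had to differ by less than 1.5 on the same scale, and each had to reach a mean of at least 1 CPM. Of the 262 genes that passed both limits on the DTT response, 40 were under the CPM floor and 20 differed too much between the carbon sources. The genes bip1 (TrG0399C) and pdi1 (TrA0675W) were left out by name, and only pdi1 would otherwise have passed, since bip1 was outside the limit between the carbon sources. Because these values chose the genes, the responses to DTT below are descriptions, and counts of genes past the test of a DTT contrast are given only to describe them.

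The cultures were of Rut-C30, a cellulase-hyperproducing strain obtained from the wild type QM6a by mutagenesis and carrying a truncated cre1, and of Δres2, a single transformant of Rut-C30 in which the transcription factor gene res2 had been deleted with CRISPR-Cas9. All of them were first grown for 48 h as a batch on glucose and were then fed with glucose or with lactose for 48 h according to the labels (the paper's methods give a shorter feeding time). In each carbon source, some cultures received 10 mM DTT for the last 2 h and the others did not, so that the 4 conditions were glucose control (GC), glucose with DTT (GD), lactose control (LC) and lactose with DTT (LD). There were 2 cultures for each strain in each condition, called culture 1 and culture 2 below after their replicate numbers.

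DTT (dithiothreitol) is a reducing agent that keeps disulfide bonds from forming, so that proteins entering the endoplasmic reticulum (ER) cannot fold properly. Fungi answer with the unfolded protein response, in which the ER sensor IRE1 activates the transcription factor HAC1 and genes for chaperones, foldases, glycosylation, vesicle transport and membrane lipids are induced. DTT also acts outside the ER, on the thiols of the whole cell. Growth on lactose, which induces the cellulases, loads the secretory pathway of T. reesei without a reducing agent.

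The libraries held 20351784 to 35679977 counts. The gene name of res2 in the count tables is not given in the sources used here. The gene with the lowest value in Δres2 against Rut-C30, TrA1112W (named after its values were seen and none of the 201), had 2900 to 7046 counts in the 8 Rut-C30 libraries and 0 to 2 counts in the 8 Δres2 libraries, so that the libraries fell into 2 groups of 8 as labelled. Duplicate cultures in lactose were close to each other, and those in glucose were not. In lactose, at most 0.498% of the 201 genes differed by more than 2-fold between duplicates. In glucose, this share was 21.9% for GC and 32.3% for GD in Rut-C30, against 14.5% and 10.3% of all genes above the floor. In Δres2 it was 18.9% for GC and 61.2% for GD, against 18.2% and 38.3%. The duplicates of Δres2 in GD were thus the farthest apart. Of the 4 GD cultures, culture 1 of Δres2 was the lowest for 80 and the highest for 64 of the genes, and its culture 2 the lowest for 69 and the highest for 40.

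The 201 genes together took a small share of the transcripts without DTT and a large one with it. In Rut-C30 they held 1.68% and 1.37% of all counts in the GC cultures and 13.9% and 11.9% in the GD cultures. In lactose the same strain had 1.23% and 1.17% without DTT and 12.4% and 12.4% with it. In Δres2, the shares were 1.22% and 1.45% (GC), 12.7% and 11.8% (GD), 1.15% and 1.16% (LC), and 12.4% and 12.2% (LD). The libraries with DTT and those without it did not overlap, and culture 1 of Δres2 in GD lay within the range of the others.

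**Figure D1:**
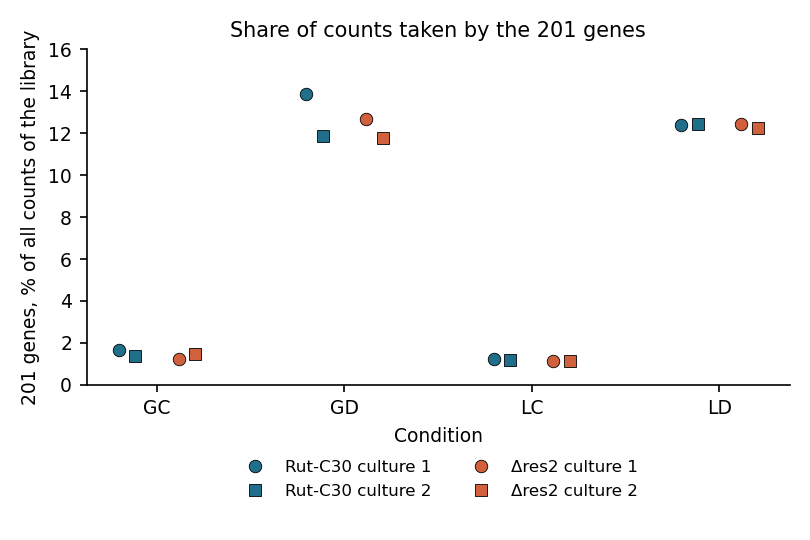
Share of all counts of a library that fell on the 201 genes (vertical axis, percent) in each condition (horizontal axis), 1 point per culture. The 8 libraries without DTT lie between 1.15% and 1.68% and the 8 libraries with DTT between 11.8% and 13.9%.

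The median response was 3.15 in lactose and 3.01 in glucose on the log2(mean CPM + 1) scale, with ranges of 2.03 to 8.64 and 2.01 to 8.40. Over the 8087 genes above the floor the medians were 0.07 and -0.40. Both responses were at least 3 for 86 of the 201 genes, at least 4 for 31 and at least 6 for 6. The response was larger in lactose for 122 genes and the difference between the carbon sources was at most 1 for 158. The lactose response exceeded the glucose response by a median of 0.20 for the 201 genes and of 0.45 for all genes above the floor. This order depended on the scaling of the libraries. In the edgeR fit with TMM factors, the medians of the 201 genes were 3.16 in lactose and 3.43 in glucose. Without DTT, 134 of the genes were lower in lactose than in glucose (median -0.30, against -0.51 for all genes above the floor).

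All 4 LD libraries were above all 4 LC libraries for each of the 201 genes. The rule used these libraries, and 38.3% of the genes above the floor had the same order. The 4 GD libraries were all above the 4 GC libraries for 178 of the genes, against 10.1% of the genes above the floor. With the limits the study used (adjusted p under 0.005, log2 fold change over 2, mean normalized count no lower than 100), the quasi-likelihood test of edgeR, adjusted by Benjamini-Hochberg, placed 190 of them up in GD/GC and 182 up in LD/LC, where 5.02% and 4.58% of all 9101 fitted genes were. These counts only describe the genes, since the same contrasts chose them. In the fit of the 8 glucose libraries alone, the count for GD/GC was 114, against 2.55% of all genes.

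**Figure D2:**
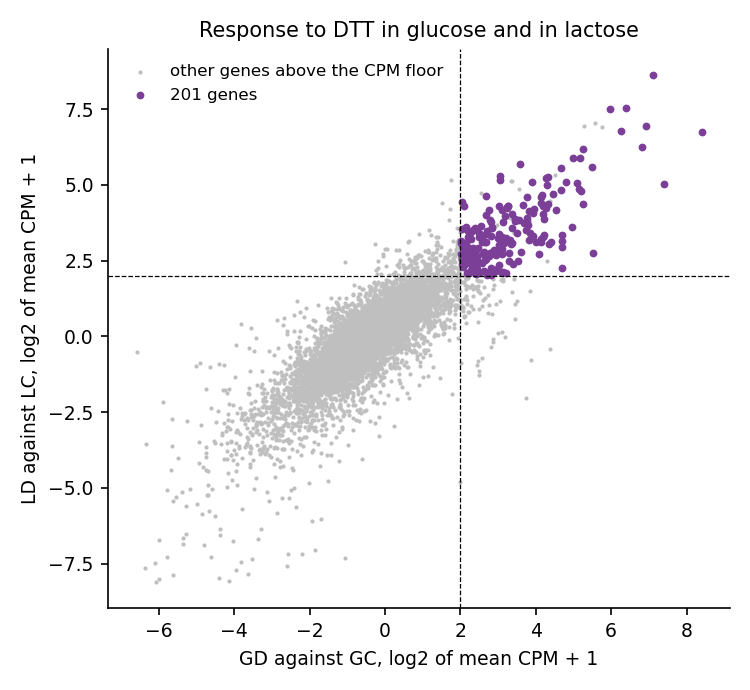
Response to DTT in glucose (horizontal axis) and in lactose (vertical axis), each as the log2 ratio of the mean CPM plus 1 over 4 libraries, with the 201 genes in purple and the other genes above the CPM floor in grey. Dashed lines mark the limits of 2, and grey points beyond both lines are genes outside the limit on the difference between the carbon sources or left out by name.

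The limits cut through a continuous range. TrG1040W (2.03) and TrB1586W (2.03) lay just inside the limit on the lactose response, and TrF0345W (2.00) and TrE1267W (1.99) just outside. TrF0455C (2.01) and TrB0324W (2.01) lay just inside the limit on the glucose response, and TrB0231W (2.00) and TrG1105W (1.99) just outside. For the carbon source, TrC0442W (-1.43) and TrC0951C (-1.41) were the innermost genes at the limit and TrE1255W (-1.52) and TrE0788C (-1.52) were next beyond it. For the CPM floor, these were TrA0009W (1.04 CPM) and TrE0583C (1.11 CPM) inside, and TrA1948C (0.847 CPM) and TrF0926W (0.738 CPM) outside.

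The known targets of the ER stress response give the scale. The chaperone gene bip1 was at a mean of 903 CPM in GC, 18534 in GD, 2971 in LC and 25612 in LD, and the foldase gene pdi1 at 745, 5552, 1333 and 6181 CPM. The responses in lactose and in glucose were 3.11 and 4.36 for bip1 and 2.21 and 2.90 for pdi1. The genes hrd1 and lcl2, of ER-associated degradation, had responses of 1.05 and 2.02, and of 0.55 and 1.71. The median response of the 201 genes was close to that of bip1 in lactose (3.15) and below it in glucose (3.01). In lactose hrd1 and lcl2 were under the limit of 2, and lcl2 was under it in glucose too.

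The gene with the largest response in lactose was TrB1877W (TRIREDRAFT_52012, chromosome II from 5919324 to 5920170, plus strand, 2 exons). It was at 14.4 and 7.35 CPM in the GC cultures of Rut-C30 and at 1622 and 1726 CPM in GD. In lactose it was at 5.27 and 5.29 CPM without DTT and at 2610 and 2729 CPM with it. In Δres2 the GC cultures had 14.4 and 10.6 CPM and the GD cultures 2281 and 1312 CPM, and the values were 5.4 and 5.52 CPM for LC and 2459 and 2355 CPM for LD. Every culture with DTT was thus far above every culture without it, and the responses were 8.64 in lactose and 7.10 in glucose. The sources used here give no function for this gene.

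TrB1074W (chromosome II from 3369222 to 3370283, plus strand, 5 exons) had the largest response in glucose. It was at 0.516 and 1.15 CPM in GC of Rut-C30 and at 620 and 394 CPM in GD, with 2.07 and 0.754 CPM, then 1141 and 703 CPM, in Δres2. In lactose it was at 1.77 and 1.42 CPM and then 239 and 254 CPM in Rut-C30, and at 1.99 and 1.62 CPM and then 328 and 324 CPM in Δres2. The response was 8.40 in glucose and 6.73 in lactose.

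TrA0795W (TRIREDRAFT_22560, chromosome I from 2361729 to 2362970, plus strand, a single exon) was 1 of 2 genes among the 10 with the strongest response in both carbon sources whose level without DTT was higher in lactose than in glucose by more than 1 on the log2 scale (1.06, and 1.22 for TrE0427W). Rut-C30 had 32.9 and 22.6 CPM in GC and 4184 and 1827 CPM in GD, and 40.1 and 45.4 CPM in LC and 3507 and 3761 CPM in LD. In Δres2 the GC cultures had 18.9 and 12.6 CPM and the GD cultures 3363 and 912 CPM, and the values were 48.7 and 52.0 CPM for LC and 3774 and 3354 CPM for LD. The GD duplicates were apart by more than 2-fold in both strains and those in LD were not.

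The other genes with the strongest response in both carbon sources were TrE0427W (6.95 in lactose and 6.92 in glucose), TrD1304C (7.55 and 6.39), TrC1004W (6.77 and 6.26), TrC1498W (7.52 and 5.96), TrG1016C (5.60 and 5.49), TrC0831W (6.19 and 5.26) and TrF0410C (5.89 and 5.18). None of them carries a function in the sources used here. TrF0410C was the steadiest of these in glucose, with 501, 415, 425 and 391 CPM in the 4 GD cultures. TrD1304C spread most, with 326 and 1142 CPM in GD of Rut-C30 and 81.3 and 1982 CPM in GD of Δres2, while its 4 LD cultures lay between 911 and 1248 CPM.

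The most abundant transcripts were other genes. TrB0335W (TRIREDRAFT_122124, chromosome II from 1012097 to 1014808, plus strand) was at 583 and 388 CPM in GC of Rut-C30 and at 428 and 532 CPM in Δres2. In GD it was the highest of the 201 in both Rut-C30 cultures and in culture 2 of Δres2 (10404 CPM), but at 3068 CPM in culture 1 of Δres2. In LD it was at 7394 and 7225 CPM in Rut-C30 and 5961 and 5699 CPM in Δres2. TrD0178W (TRIREDRAFT_110171, chromosome IV from 516874 to 518352, plus strand) was the highest in all 4 LD cultures, at 7397 and 8246 CPM in Rut-C30 and 8999 and 9382 CPM in Δres2. It was at 3672, 4585, 4601 and 4071 CPM in the GD cultures, so that its response was 4.64 in lactose and 2.68 in glucose.

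TrE0704W, unlike these, was higher in lactose than in glucose without DTT (0.91), with 969 and 1030 CPM in LC of Rut-C30 and 755 and 743 CPM in LC of Δres2. Its responses were 2.40 in lactose and 3.41 in glucose. TrE1242C (4.83 in lactose and 4.67 in glucose) and TrG1158C (2.09 and 2.24) completed the 10 most abundant with the lipid genes below and TrA0795W. Per kilobase of coding length, the highest level with DTT was that of TrE0533C (18024 CPM per kb for 210 coding bases), followed by TrD0178W (4718) and TrC0805W (4407), while TrB0335W had 2877. TrE0533C was at 11940 CPM in culture 1 of Δres2 in GD, above the 2076, 3348 and 4392 CPM of the other GD cultures.

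**Figure D3:**
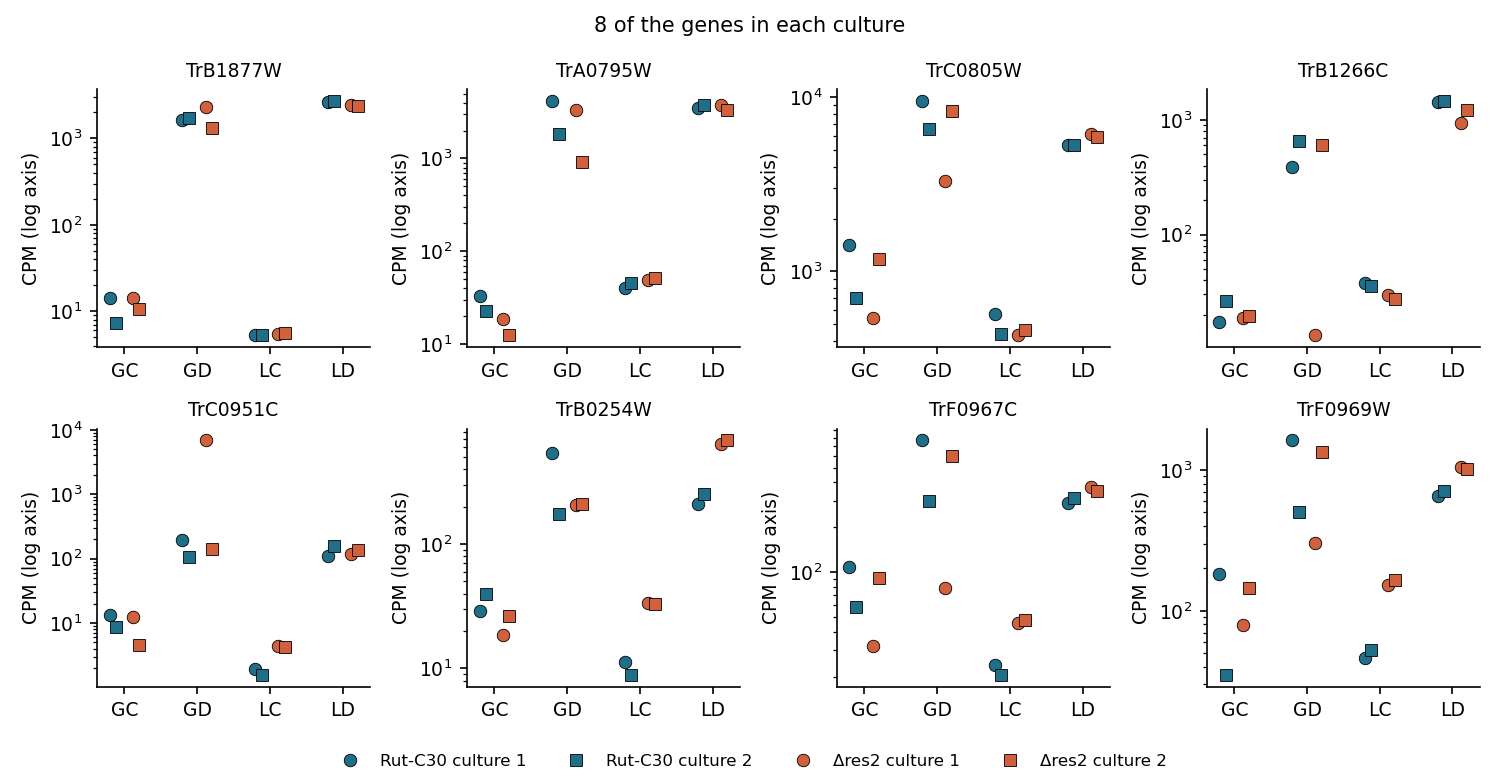
CPM (vertical axes, log scale) of 8 of the genes in each condition, 1 point per culture. TrB1877W and TrA0795W are among the genes with the strongest response, TrC0805W, TrB1266C and TrC0951C are shown for culture 1 of Δres2 in GD (3318, 13.2 and 6837 CPM), and TrB0254W, TrF0967C and TrF0969W for the higher level of Δres2 in LC.

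A Gene Ontology (GO) term was found for 43 of the 201 genes, and 40 of these fell into 6 groups of functions. The groups overlap. The terms were read from the study's lists of regulated genes, which were made from these same samples, so that the groups are annotation and no evidence of a direction. Below, a gene counts as paired with a term only if these lists of regulated genes hold it. Counts of paired genes up or down therefore do not describe a whole term. The largest group was lipid metabolism with 15 genes, with median responses of 2.72 in lactose and 2.85 in glucose. For 14 of the 15, all GD cultures were above all GC cultures, an order that 178 of the 201 genes had. Without DTT, 12 of the 15 were lower in lactose than in glucose (median -0.43, against -0.51 for all genes above the floor).

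Of the 27 genes of the genome with the term fatty acid biosynthesis, 7 could be paired with the count tables and 4 of these were among the 201. TrF1161W (TRIREDRAFT_81110, chromosome VI from 3829170 to 3836222, plus strand) is annotated to malonyl-CoA biosynthesis, the committed step towards fatty acids. It was at 829 and 567 CPM in GC of Rut-C30 and 4992 and 4384 CPM in GD, with 333 and 805 CPM and then 3343 and 3446 CPM in Δres2. In lactose it was at 322 and 284 CPM and then 4486 and 4325 CPM in Rut-C30, and at 238 and 246 CPM and then 4245 and 4641 CPM in Δres2. The levels with DTT overlapped between the carbon sources, and the larger response in lactose (4.02, against 2.67 in glucose) went with the lower level without DTT.

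TrC0442W, of long-chain fatty acid biosynthesis, had the same order of levels, at 405 to 873 CPM in GC, 198 to 316 CPM in LC, 2180 to 3879 CPM in GD and 2528 to 2838 CPM in LD. TrC0441C, which carries the term fatty acid biosynthesis too, had responses of 3.17 in lactose and 1.94 in glucose and missed the limits on the glucose response and on the carbon source (-1.64). TrC0805W, of unsaturated fatty acid biosynthesis (TRIREDRAFT_74854, chromosome III from 2779244 to 2780761, plus strand), was at 1424 and 705 CPM in GC of Rut-C30 and 541 and 1181 CPM in Δres2. It reached 9548 and 6601 CPM in GD of Rut-C30, and 3318 and 8376 CPM in Δres2. In lactose it was at 569, 440, 430 and 463 CPM without DTT and at 5335, 5295, 6140 and 5949 CPM with it. TrA1803W, the fourth gene of the term, had responses of 3.78 and 3.13.

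Among the genes for membrane lipids, TrB1370C (TRIREDRAFT_49864, chromosome II from 4357365 to 4358271, minus strand) is annotated to the biosynthesis of phosphatidylcholine, a main phospholipid of ER membranes. It was at 273 and 164 CPM in GC of Rut-C30, 3071 and 2114 CPM in GD, 202 and 172 CPM in LC, and 2497 and 2787 CPM in LD. Δres2 had 210 and 154, 2555 and 1649, 187 and 193, and 2708 and 2805 CPM in the same conditions. Its levels without DTT were alike in both carbon sources (-0.08), and its responses were 3.83 in lactose and 3.54 in glucose. The phospholipid genes TrE0352W (2.64 and 2.45) and TrD1058C (2.16 and 2.93) and the sterol gene TrC0821W (2.72 and 2.88) were lower in the order. Of the genes paired with the terms phospholipid biosynthesis and sterol biosynthesis, 3 of 9 and 1 of 3 were among the 201, and edgeR placed 7 and 1 up in GD/GC and 3 and 1 up in LD/LC with the limits of the study. Both genes that carry the term triglyceride mobilization, the release of stored fat, were among the 201, TrF0969W (3.03 and 3.08) and TrE0689W (2.78 and 2.63).

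The secretory pathway and glycosylation group held 8 genes, with median responses of 2.68 in lactose and 2.75 in glucose. All GD cultures were above all GC cultures for each of the 8, an order that 178 of the 201 genes had. TrA0730W, annotated to the posttranslational targeting of proteins to the ER, was at 81.4 and 69.2 CPM in GC of Rut-C30, 534 and 484 CPM in GD, 97.1 and 90.7 CPM in LC, and 607 and 593 CPM in LD. In Δres2 it was at 68.3 and 45.4, 368 and 422, 89.2 and 87.3, and 585 and 535 CPM. Its lowest culture with DTT (368 CPM) was far above its highest without DTT (97.1 CPM).

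TrD0442C (2.76 and 2.82) is annotated to the delivery of nascent proteins by the signal recognition particle and TrA1752W (2.93 and 2.46) to transport from the ER to the Golgi. TrA0691C (2.7 and 2.29), of dolichol biosynthesis, and TrC0643C (2.48 and 3.53), of the dolichol-linked sugar chain used in N-glycosylation, prepare the sugar donor of ER glycoproteins. TrD0600C (3.17 and 3.13), annotated to protein glycosylation, had the largest lactose response of the group but a low level, with a mean of 31.1 CPM in GD and 27.8 CPM in LD. Of the 10 genes paired with that term, 3 were among the 201, 5 were up in GD/GC and 3 in LD/LC. Of the 6 genes paired with the term protein targeting to ER, 2 were among the 201, and edgeR's test placed 5 of the 6 up in GD/GC and 2 up in LD/LC with the limits of the study. TrA0270C and TrF0970W, outside the 201, had responses in lactose of 1.86 and 1.91, under the limit of 2. Of the 19 genes with the term transport from the ER to the Golgi, 6 could be paired, of which edgeR placed 3 up in GD/GC and 1 up in LD/LC. Of these 6, 1 was among the 201, and the others had responses of 1.13 to 1.72 in lactose and of 1.44 to 1.69 in glucose.

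The group of amino acid, sulfur and organic acid metabolism held 10 genes. On the CPM scale 8 of them had the larger response in lactose, as most genes above the floor did. TrA1485C, annotated to both alpha-amino acid and sulfur compound metabolism (TRIREDRAFT_46238), was at 291 and 242 CPM in GC of Rut-C30 and 115 and 310 CPM in Δres2. It reached 2019 and 2347 CPM in GD of Rut-C30, 2318 and 2124 CPM in GD of Δres2, 2665 and 2859 CPM in LD of Rut-C30, and 3179 and 3348 CPM in LD of Δres2, from 178 to 203 CPM in LC. TrC0049W, of alanyl-tRNA aminoacylation, had responses of 4.41 in lactose and 4.14 in glucose, TrB1914C, of branched-chain amino acids, 3.82 and 3.77, and TrA0102C, of sulfur compounds, 5.17 and 3.04.

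These genes were not typical of the genes paired with their terms. Of 20 genes paired with the term alpha-amino acid metabolism, 2 were among the 201, 7 were up in LD/LC and 8 down by edgeR's test with the limits of the study, and the medians of the 20 were 0.01 in lactose and -0.27 in glucose. Of 20 genes paired with sulfur compound metabolism, 5 were among the 201, with 8 up and 8 down in LD/LC and medians of -0.87 and 0.09. TrC0275C carries the RefSeq symbol cit1 (used for citrate synthase, the entry enzyme of the citric acid cycle) and a term of carboxylic acid metabolism. Its duplicates were close to each other in every condition, with 1861 to 2145 CPM in GD of Rut-C30, 1711 to 1941 CPM in GD of Δres2 and 1528 to 1698 CPM in LD, from 420 to 459 CPM in GC and 229 to 257 CPM in LC.

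The 7 genes of transport had median responses of 4.25 in lactose and 3.99 in glucose, above those of the lipid and secretory groups. The strongest was TrE0950W (TRIREDRAFT_54858), annotated to the regulation of calcium entry, at 10.0 and 8.87 CPM in GC of Rut-C30, 455 and 338 CPM in GD, 7.81 and 8.38 CPM in LC, and 532 and 574 CPM in LD. Δres2 had 13.9 and 8.52, 445 and 191, 7.66 and 7.49, and 483 and 489 CPM. TrF1047C (5.09 and 4.81) and TrB1039W (4.68 and 4.16) carry the term transmembrane transport, without a substrate.

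Of the 29 genes with the term amino sugar metabolism, the pathway of N-acetylglucosamine and chitin, 2 could be paired. Both were among the 201. TrB1266C (TRIREDRAFT_5614) was at 37.9 and 35.4 CPM in LC of Rut-C30 and 29.7 and 27.4 CPM in Δres2, and at 1430, 1472, 935 and 1221 CPM in the 4 LD cultures. In GD it was at 387 and 653 CPM in Rut-C30 and at 606 CPM in culture 2 of Δres2, but at 13.2 CPM in culture 1, no higher than the 17.1 to 26.4 CPM of the GC cultures. TrB1343C is described with the strains below. The single gene of DNA repair, TrB1428C of base excision repair, was at 3.73 to 13.3 CPM without DTT and at 40.2 to 78.7 CPM with it. Of the 118 genes with the term DNA repair, 21 could be paired, and TrB1428C was the only 1 of them among the 201. Of these 21, edgeR placed 15 up in LD/LC and 6 up in GD/GC. Of the 30 genes with the term response to oxidative stress, 2 could be paired. Neither was among the 201, and both were up in GD/GC and in LD/LC.

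The remaining 158 genes carry no GO term in the lists used here, and 14 of the 201 have no TRIREDRAFT number in the tables used here. The gene models of the 199 genes with a position, annotated or not, were not unusual in length. Their median coding length was 1299 bases, against 1332 for all genes above the floor. Single-exon genes made up 32.2% of the 199 genes with a position (64 genes), against 20% of the 7939 placed genes above the floor. Models that the deposited annotation marks as new made up 6.03% of the placed genes, against 5.39%. TrG1040W was the only gene whose span overlapped another gene (TrG1041C on the opposite strand), and the sources do not say whether counting used the strand, so that its reads may not be told apart from those of TrG1041C.

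Of the 199 placed genes, 28 (14.1%) had another of the 201 as their direct neighbour, in 14 pairs and never in a run of 3, while 3.99% of all placed genes had 1 of the 201 as a direct neighbour. In 6 of the 14 pairs the genes were transcribed away from each other, in 1 towards each other and in 7 in the same direction. Over all adjacent genes, the shares were 28.8%, 28.8% and 42.5%. Genes without a position were passed over in finding neighbours. The pair with the largest responses was TrD1303W (5.57 in lactose and 4.68 in glucose) and TrD1304C on chromosome IV, between 4087968 and 4089380. Direct neighbours that were not among the 201 were also shifted, and most where the genes were transcribed away from each other. The 73 such neighbours above the CPM floor had median responses of 1.02 in lactose and 0.60 in glucose. Above the floor, the medians were 0.43 and -0.14 for the 130 neighbours on the same strand and 0.14 and -0.28 for the 95 transcribed towards the gene. They were 0.04 and -0.44 for all 7886 genes above the floor outside the 201.

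Culture 1 of Δres2 in GD differed from the other 3 GD cultures gene by gene, although its summed share was alike. For 36 of the 201 genes its CPM plus 1 was under 0.5 times that of the lowest of the other 3, and for 20 genes it was over 2 times that of the highest. The same counts were 13 and 8 for culture 2 of Δres2, 4 and 5 for culture 1 of Rut-C30, and 2 and 6 for its culture 2. The rule averaged the 4 GD cultures, so that a high value in 1 of them could carry a gene over the glucose limit. Among the 20 high genes, TrE0074C, TrD1193C, TrD0690C, TrC1322W and TrA0923W passed that limit only through culture 1 of Δres2. The count of genes high in this culture is therefore partly a product of the rule. Among the 4 LD cultures, only 1 gene in 1 culture was this far below the others and none was this far above. Against the mean of the GC cultures, 26 genes were higher by less than 1 (log2) in culture 1 of Δres2 and 12 of them were lower, against 4 to 9 genes and at most 1 gene in the other GD cultures. The deviation was not confined to the 201 genes. Between the GD duplicates of Δres2, 38.3% of all genes above the floor were more than 2-fold apart, against 61.2% of the 201. The counts of low and high genes were not made for all genes.

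Among the genes that stayed low (named here after their values were seen), TrD0409C and its neighbour TrD0408C were at 3.98 and 3 CPM in culture 1 of Δres2 in GD, and at 208 and 99.6 CPM in culture 2. TrC0325W was at 17.2 and 639 CPM, TrA2027W at 1.62 and 271 CPM and TrB1268W at 38.8 and 1028 CPM in the same cultures. All 5 were higher in both LD cultures of Δres2 than in both LC cultures, as all 201 genes were. TrC0325W for example had 1307 and 1134 CPM in LD. The 36 low genes had median responses of 3.55 in lactose and 3.03 in glucose.

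The 4 genes with the largest gap between culture 1 and the highest of the other 3 were TrC0951C (6837 CPM, against 196, 104 and 142 CPM in the other GD cultures), TrE0074C (1169 CPM, against 32.2, 22.0 and 9.30), TrG0951W (308 CPM, against 26.1, 28.7 and 16.4) and TrB1746C (1104 CPM, against 139, 21.2 and 94.7). TrC0951C was at 111, 155, 116 and 134 CPM in LD, and at 4.61 to 13.2 CPM in GC, so that its glucose response of 7.41 includes 1 culture far above the others. Of the 36 low genes, 4 carried a GO term, and of the 20 high ones 5, which included 3 of the 7 transport genes and the ketone body gene TrE0251W (375 CPM, against 12.2 CPM in culture 2). Without culture 1 of Δres2 in GD, the rule gave 202 genes, 189 of them among the 201.

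**Figure D4:**
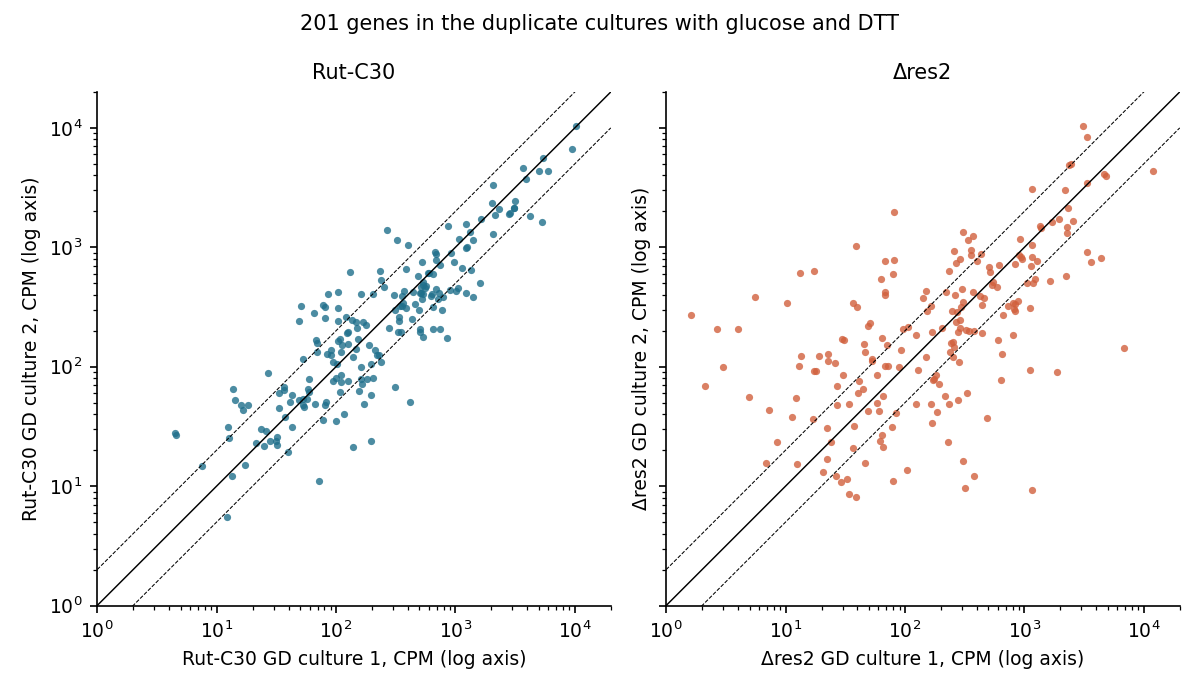
CPM of the 201 genes in culture 1 (horizontal axes) and culture 2 (vertical axes) with glucose and DTT, both on log axes, for Rut-C30 (left) and Δres2 (right), with lines at equal levels (solid) and at a 2-fold difference (dashed). Across these genes, which are not independent replicates, Pearson's r of log2(CPM + 1) was 0.878 in Rut-C30 and 0.595 in Δres2.

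The strains were compared next, since the rule averaged over them and did not use their difference. The p-values measure the spread between duplicate cultures. The question was whether the loss of res2 changes the level of these genes or their response to DTT. In the fit of all 16 libraries, the quasi-likelihood test of edgeR, adjusted by Benjamini-Hochberg, called none of the 201 genes at an adjusted p under 0.05 in any comparison of the strains. This covers GC (10 genes at an unadjusted p under 0.05), GD (31), LC (8), LD (2) and the average of the 4 conditions (19). It also covers the difference between the strains in the response to DTT in glucose (12) and in lactose (0). Among all 9101 genes, 0.033%, 0.0549%, 0.022%, 0.011% and 0.044% were called in the same order, and 0% for each difference in response, so that 0 of 201 is near the background. The median of the 201 genes in Δres2 against Rut-C30 was between -0.11 (GD) and 0.09 (LC) on the log2 scale.

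DESeq2 called 9 of the 201 genes in GD (2.23% of all genes) and 3 on average (1.16%), and 0 in GC, LC, LD and both differences. In GD these included TrF1053W (-1.62 ± 0.34, adjusted p 0.000884), at 94.2 and 75.9 CPM in Rut-C30 and at 22.1 and 30.4 CPM in Δres2, with no overlap. They also included TrC0951C and TrE0074C, the genes described above as far higher in culture 1 than in culture 2. On average over the conditions they were TrF0527C (0.69 ± 0.11, adjusted p 1.23e-07), TrD0752W and TrG0017C. TrF0527C was higher in both Δres2 cultures than in both Rut-C30 cultures in each of the 4 conditions, with 13.3 and 15.1 CPM in Rut-C30 and 19.2 and 20.8 CPM in Δres2 in GC, and with 12.2 and 13.9 CPM and 16.8 and 18.8 CPM in LC. Its adjusted p in edgeR's test was 0.0872.

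The cultures of Δres2 in GD decided the counts that involve GD. Without culture 1, edgeR called 11 of the 201 genes in GD (9 higher and 2 lower in Δres2) and 10 on average, against 1.18% and 3.08% of all genes. Without culture 2, so that culture 1 stood alone for the group and was assumed to vary like the other groups, it called 66 in GD (21 higher and 45 lower), 26 on average and 53 in the difference of the glucose response, against 22.1%, 5.5% and 16.8% of all genes. Without culture 2 of Δres2 in GC, it called 6 in GC and 6 on average (2.99% of the 201 each), against 10.7% and 6.67% of all genes. The counts in glucose thus depended on which culture of Δres2 was used.

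In lactose the spread was much smaller. The biological coefficient of variation was 0.0711 in the 8 lactose libraries, 0.494 in the 8 glucose libraries and 0.355 in the fit of all 16, whose shared spread was therefore too wide for the lactose duplicates. In the fit of the 8 lactose libraries alone, edgeR's test called 42 of the 201 genes in LC (36 higher and 6 lower in Δres2) and 54 in LD (42 higher and 12 lower) at an adjusted p under 0.05. Of all 8889 genes fitted, 13.9% were called in LC and 13.3% in LD, against 20.9% and 26.9% of the 201, and this difference in shares was not tested. Among all fitted genes, 710 of the 1238 called in LC and 873 of the 1182 called in LD were higher in Δres2. The counts moved with single libraries, from 27 without culture 1 of Δres2 to 66 without culture 2 of Rut-C30 in LC, against 6.57% and 18.4% of all genes. In LD the lowest count was 31 without culture 1 of Rut-C30, against 6% of all genes.

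Most of these differences were small. The median size among the called genes was 0.65 in LC and 0.49 in LD on the log2 scale, and 156 of the 201 genes differed by at most 0.5 in both conditions. A total of 21 genes were called in both conditions, which is 50.0% of the LC calls and 38.9% of the LD calls. Among all fitted genes, 488 were called in both, of 1238 called in LC and 1182 called in LD. Of the 21 genes, 19 were higher in Δres2 in both, none was lower in both, and 2 changed direction. The latter were TrF0766W (0.37 ± 0.10 in LC and -0.52 ± 0.09 in LD) and TrG0402W (-0.39 ± 0.09 and 0.33 ± 0.07), the last named after its values were seen. The average over LC and LD was called for 73 genes (55 higher), against 22.3% of all genes. Without culture 1 of Δres2 in LC it was called for 46 (14.7% of all genes), and without culture 1 of Rut-C30 in LD for 48 (13.7%).

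**Figure D5:**
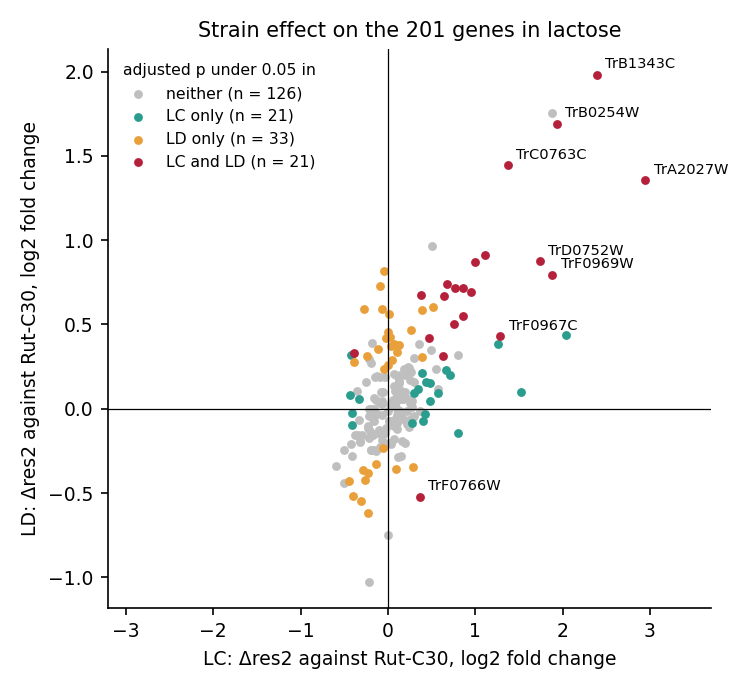
Difference between Δres2 and Rut-C30 in LC (horizontal axis) and in LD (vertical axis), as log2 fold changes from the fit of the 8 lactose libraries, for the 201 genes coloured by the condition in which edgeR's adjusted p was under 0.05. The 19 genes higher in Δres2 in both conditions lie in the upper right, and TrF0766W in the lower right.

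TrB0254W (TRIREDRAFT_62380, chromosome II from 812020 to 813873, plus strand, 3 exons) had the smallest p in LD and on average. It was at 11.2 and 8.87 CPM in LC of Rut-C30 and at 33.4 and 33.0 CPM in Δres2, and at 209 and 253 CPM and 634 and 679 CPM in LD. The groups did not overlap, and the differences were 1.93 ± 0.11 in LC (adjusted p 2.93e-08) and 1.69 ± 0.09 in LD (adjusted p 4.11e-08). The difference of its response to DTT was -0.24 ± 0.14 and did not pass the threshold (adjusted p 0.467). In GC both Δres2 cultures were below both Rut-C30 cultures, with 18.4 and 26.6 CPM against 28.8 and 39.4 CPM. In GD the strains overlapped, with 205 and 211 CPM against 535 and 176 CPM.

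TrB1343C (TRIREDRAFT_79671), of N-acetylglucosamine metabolism, had the same pattern. It was at 7.20 and 3.84 CPM in LC of Rut-C30 and 25.1 and 25.2 CPM in Δres2, and at 257 and 308 CPM and 1001 and 963 CPM in LD. The differences were 2.39 ± 0.18 (adjusted p 4.41e-06) and 1.98 ± 0.14 (adjusted p 5.26e-06). TrB1266C, the other amino sugar gene, was not called (-0.15 ± 0.12 in LC and -0.25 ± 0.11 in LD). TrC0763C, whose function is not given, was 1.45 ± 0.11 higher in LD, with 120 and 151 CPM in Δres2 against 51.2 and 61.8 CPM in Rut-C30, and 19.5 and 17.6 CPM against 8.39 and 8.12 CPM in LC. TrD1001W, of transmembrane transport, was higher in LD (0.82 ± 0.08, with 304 and 285 CPM in Δres2 against 177 and 203 CPM in Rut-C30). In LC it was at 10.1 and 11.3 CPM against 13.7 and 11.8 CPM, and the difference of its response was 0.86 ± 0.13 (adjusted p 0.00158).

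TrF0967C and TrF0969W lie beside each other among the placed genes of chromosome VI, between 3226546 and 3233625. They are transcribed away from each other and were both higher in Δres2 in lactose. TrF0969W, of triglyceride mobilization, was at 46.0 and 52.5 CPM in LC of Rut-C30 and 151 and 166 CPM in Δres2, and at 653 and 704 CPM and 1054 and 1019 CPM in LD. TrF0967C, without a function in the sources used here, was at 23.8 and 20.5 CPM and 46.0 and 47.7 CPM in LC, and at 290 and 316 CPM and 371 and 348 CPM in LD. The differences in LC were 1.88 ± 0.12 for TrF0969W and 1.29 ± 0.09 for TrF0967C. In LD the differences were 0.80 ± 0.11 for TrF0969W and 0.43 ± 0.08 for TrF0967C. In glucose the strains overlapped for TrF0967C. It was at 108 and 58.4 CPM in GC of Rut-C30 and 32.3 and 91.0 CPM in Δres2, and at 765 and 298 CPM and 78.9 and 602 CPM in GD.

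Among the GO groups, 10 of the 15 lipid genes were called in LC or LD, and 4 of the 10 genes of amino acid, sulfur and organic acid metabolism, 3 of the 7 of transport and 2 of the 8 of the secretory pathway. Of all the 201 genes, 75 (37.3%) were called in LC or LD, and of all genes fitted 21.7%, and no group was tested against these shares. The lipid genes included TrC0805W (0.37 in LD), TrA1803W (0.31 in LD), TrE0689W (0.29 in LD) and TrE0251W (0.68 in LC and 0.74 in LD), while TrG1158C was lower in Δres2 in LC (-0.42). The secretory genes called were TrC0643C (0.49 in LC) and TrA0691C (0.24 in LD), which belong to the lipid group too and are counted in both.

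The response to DTT in lactose differed between the strains for 18 of the 201 genes in the fit of the 8 lactose libraries, with 9 larger and 9 smaller in Δres2, against 3.94% of all genes. The 18 had a median size of 0.78 on the log2 scale. All 201 genes, chosen by this contrast, had both LD cultures above both LC cultures in each strain, so that this order is no trait of the 18. The 5 genes with the smallest p all had the smaller response in Δres2. They were TrF0967C (-0.85 ± 0.11), TrA2027W (-1.59 ± 0.20), TrF0969W (-1.09 ± 0.16), TrD0752W (-0.86 ± 0.13) and TrF0766W (-0.89 ± 0.13). TrA2027W was at 4.93 and 4.77 CPM in LC of Rut-C30 and 37.7 and 27.0 CPM in Δres2, and at 212 and 223 CPM and 502 and 478 CPM in LD. TrD0752W was at 24.5 and 25.5 CPM and 69.2 and 76.0 CPM in LC, and at 321 and 333 CPM and 534 and 523 CPM in LD. All 5 were called higher in Δres2 in LC. In LD, TrF0766W was lower in Δres2, at 277 and 269 CPM against 450 and 441 CPM in Rut-C30. The count was 32 without culture 2 of Rut-C30 in LC, against 6.72% of all genes.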

How the data were processed

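Polyadenylated RNA of 16 cultures was sequenced as strand-specific libraries. According to the authors' methods, reads were filtered, aligned to the QM6a genome with STAR 2.7.8a, freed of reads with several alignments and assigned by HTSeq 0.5.3 to the coding parts of custom gene models. The deposited values were these counts, 1 whole number per gene and library, without normalization, and positions came from the deposited annotation. From the counts, CPM over the library sum were computed for the rule, with a pseudocount of 1. Strain and DTT contrasts were fitted with edgeR 4.0.16 (TMM factors, filterByExpr, robust glmQLFit, R 4.3.3) with 8 group means in a single model, and p was adjusted by Benjamini-Hochberg over all 9101 fitted genes. Errors (±) are standard errors. For edgeR they are the absolute log2 fold change divided by the square root of F, and for TrF1053W and TrF0527C those that DESeq2 reports. A strain difference within a condition compares 2 cultures with 2, while averages and differences of a response use more cultures. All 201 genes passed the filter. The median of all fitted genes moved from -0.35 in CPM to -0.08 with TMM factors for GD/GC, and from 0.05 to -0.06 for LD/LC. DESeq2 1.42.0, other normalization and filters, the carbon sources fitted alone, a replicate block and each library left out were alternatives. The methods were tested on simulated data.

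The 201 genes, the lists and the tests were chosen with earlier results of these data known. Genes named in the text are the 10 most abundant with DTT, the 10 with the largest smaller response, the 5 with the smallest p in each strain test past an adjusted p of 0.05 (taken from the lactose fit, since the fit of all libraries called none), 3 per GO group and those next to a limit. Others were named after their values were seen. These are the other members of a GO group, TrB1268W, TrC0325W, TrC0951C, TrD0408C, TrD0409C, TrE0074C, TrB1746C, TrG0951W, TrF0527C, TrF1053W, TrG0017C, TrD1303W and the genes outside the 201. TrA0923W, TrC1322W, TrD0690C and TrD1193C were named in the same way. TRIREDRAFT numbers and GO terms were read from the study's supplementary lists, which cover only its regulated genes, and 187 numbers were found in RefSeq, 2 of them with a symbol. No sequences were used.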

Additional observations from a re-analysis of the deposited data

Results flagged for a closer look

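For 5 of the 201 genes, the test of the difference itself showed another response to DTT in lactose in Δres2 than in Rut-C30 (the quasi-likelihood test of edgeR, adjusted by Benjamini-Hochberg, in the 8 lactose libraries, the 5 smallest of 18 adjusted p under 0.05). The difference on the log2 scale was -0.85 for TrF0967C (adjusted p 0.000843), -1.59 for TrA2027W (adjusted p 0.00108), -1.09 for TrF0969W (adjusted p 0.00118), -0.86 for TrD0752W (adjusted p 0.0014) and -0.89 for TrF0766W (adjusted p 0.00156). In the fit of all 16 libraries, the adjusted p of each of the 5 was 1. In that fit the differences were of the same sign and of like size, at -0.91, -1.64, -1.14, -0.92 and -0.94.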

How the results depend on the processing

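No strain test of the 16 libraries called any of the 201 genes, and this count moved as follows. DESeq2 called 9 in GD and 3 on average, DESeq2's size factors in edgeR 1 on average, and the lactose libraries alone 42 in LC, 54 in LD, 73 on average and 18 for the difference of the LD/LC response. With 1 library left out, the counts ranged from 0 to 6 in GC, 0 to 66 in GD, 0 to 26 on average and 0 to 53 for the difference of the GD/GC response, and were 0 in LC, LD and for the LD/LC response. The replicate block left each of these counts at 0. Deviations of cultures with the same number had r over 0.1 in 8 of 28 pairs of groups, with a range of -0.28 to 0.59. The highest r was that of GC with GD in Rut-C30, so that the numbers may pair these cultures. For GC with GD in Δres2, r was -0.002.

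In the lactose libraries alone, with alternatives chosen after seeing the data, leaving out 1 library gave 27 to 66 genes in LC, 31 to 66 in LD, 46 to 89 on average and 12 to 32 for the difference of the response. An adjusted p under 0.005 gave 25, 28, 34 and 10, and DESeq2, its size factors and the replicate block stayed within 1.5 times (42, 56, 77 and 23 with the block). The 20 values of genes named from this fit kept their sign and their call under all of these settings.

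The glucose libraries alone gave 114 genes up in GD/GC in place of 190, and the block 189. The rule gave 352 genes with a limit of 1.5 and 122 with 2.5 on the responses, and between 195 and 226 with 1 library left out. Depth was not limiting for most genes, but genes near the floor of 1 CPM rest on few counts, and 2 cultures per group allow no outlier test.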
